A study of Mus musculus with 6 samples.

Results

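The G1 cell cycle switch was followed through 10 genes in mouse hematopoietic stem cells: the D-type cyclins Ccnd1, Ccnd2 and Ccnd3, the cyclin-dependent kinases Cdk4, Cdk6 and Cdk2, the retinoblastoma (pocket protein) family Rb1, Rbl1 and Rbl2, and the transcription factor E2f4. They were taken by symbol from the 55401 Ensembl gene identifiers of the deposited expression matrix, and each symbol matched 1 identifier. All 10 were among the 15723 genes that reached at least 1 FPKM (fragments scaled to transcript length and library size) in at least 3 of the 6 libraries, the condition for being tested.

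The study sorted stem cells from bone marrow as CD48-negative, CD150-positive cells of the LSK compartment (c-Kit-positive, Sca-1-positive cells without lineage markers) and sequenced their RNA. There were 3 Emp1-ko libraries, of genotype Emp1fl/fl,Tie2-Cre, and 3 Emp1-fl libraries, of genotype Emp1fl/fl, so both genotypes carried floxed Emp1 alleles and the controls are labelled without Cre. The Tie2 promoter drives Cre in endothelial cells as well as in blood-forming cells, and is not specific to the sorted cells. The labels give no age and do not say whether each library came from a separate mouse, so p-values reflect the spread among libraries only, and that spread may be technical.

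In a cell leaving quiescence, D-type cyclins bind CDK4 or CDK6, and the active kinase phosphorylates the pocket proteins RB, p107 and p130. Unphosphorylated pocket proteins hold E2F factors in check: p130 and p107 with E2F4 and the MuvB core form the DREAM complex, which represses cell cycle genes in resting cells. CDK2 with cyclin E then completes the phosphorylation of RB. Adult hematopoietic stem cells are mostly quiescent, and mice that lack all 3 D cyclins, or both CDK4 and CDK6, fail in fetal blood formation. In human hematopoietic stem cells, the level of CDK6 is known to set how fast a cell leaves quiescence.

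Emp1, the deleted gene, stood at 0.58, 0.70 and 0.27 FPKM in the Emp1-ko libraries, against 3.25, 2.64 and 4.32 FPKM in the Emp1-fl libraries, which matched the labels in direction. The genotypes did not overlap, but Emp1 itself missed the threshold used for all genes (log2 difference -1.53 on the log2(FPKM + 1) scale, limma adjusted p = 0.0577). The 2 genotypes each had libraries of unequal complexity, with 14334 to 16678 genes at 1 FPKM in Emp1-ko and 14806 to 18048 in Emp1-fl. Relative depth, estimated from low single-exon genes, ran from 0.773 to 1.86 in Emp1-ko and from 0.774 to 1.001 in Emp1-fl (Emp1-fl replicate 1 set to 1). Emp1-ko replicate 3 was the deepest by this estimate and had the fewest genes. Mitochondrial transcripts, whose share can vary with RNA quality, made up 5.73%, 5.41% and 6.98% of summed FPKM in the Emp1-ko libraries and 4.06%, 4.80% and 4.62% in the Emp1-fl libraries, higher in each Emp1-ko library than in any Emp1-fl library. Absolute depth is unknown, so no counting intervals are given. The gate's markers were present in every library: Kit, the stem cell factor receptor, lay at 217 to 337 FPKM in Emp1-ko and 267 to 315 FPKM in Emp1-fl, and Slamf1, which encodes CD150, at 20.1 to 27.6 FPKM in Emp1-ko and 15.1 to 20.8 FPKM in Emp1-fl. Cd48, whose protein the gate excludes, was still listed at 22.9 to 47.2 FPKM in Emp1-ko and at 26.1 to 49.6 FPKM in Emp1-fl.

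The kinases CDK4 and CDK6 bind the same cyclins, and their genes were both abundant, but the genotypes overlapped for Cdk4 and not for Cdk6. Their promoter windows are shown for that reason. Each runs from 250 bases before the RefSeq transcript start to 50 bases after it (GRCm38.p6, plus strand, Cdk4 at chr10:127063285-127063584 and Cdk6 at chr5:3343643-3343942). The Cdk4 window spans the annotated gene start at 127063534. The Cdk6 window lies inside the annotated gene, which begins at 3341485, and the bases before that gene start were not searched. Capitals mark CACGTG, the E-box letters that MYC-family and other basic helix-loop-helix factors can bind, which read the same on both strands.
Cdk4: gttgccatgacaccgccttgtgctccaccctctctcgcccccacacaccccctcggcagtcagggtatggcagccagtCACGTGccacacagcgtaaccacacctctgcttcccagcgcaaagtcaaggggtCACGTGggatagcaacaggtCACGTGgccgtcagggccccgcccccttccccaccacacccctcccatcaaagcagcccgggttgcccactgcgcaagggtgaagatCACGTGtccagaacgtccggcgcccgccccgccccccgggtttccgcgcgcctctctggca
Cdk6: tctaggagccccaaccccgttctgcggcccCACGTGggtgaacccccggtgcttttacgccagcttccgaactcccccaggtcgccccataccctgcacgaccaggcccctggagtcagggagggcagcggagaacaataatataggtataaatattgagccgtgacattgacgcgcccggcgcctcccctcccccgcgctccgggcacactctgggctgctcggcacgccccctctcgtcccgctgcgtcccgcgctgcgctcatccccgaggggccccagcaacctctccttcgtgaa
The Cdk4 window held 4 such matches, beginning 172, 118, 98 and 11 bases before the start, and the Cdk6 window held 1, beginning 220 bases before it. Of 32841 RefSeq promoter windows of this length, 7.15% held at least 1 CACGTG and 29 windows held 3 or more. A search on both strands for the E2F letters TTTCCCGC, TTTCGCGC, TTTGCCGC and TTTGGCGC, which 2.27% of windows hold, found 1 match in the window of Cdk2 (GCGGGAAA, beginning 140 bases before the start) and 1 in that of Rbl1 (TTTCGCGC, 18 bases before the start). The windows of Cdk4, Cdk6, Rbl2 and both windows of Ccnd3 held no E2F match, and Ccnd1, Ccnd2, Rb1 and E2f4 were not searched. These are letter matches and carry no measurement of binding. Their part in the genotype differences of Cdk4 and Cdk6 was not tested.

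None of the 10 genes passed the test between genotypes, 0 higher and 0 lower (limma on log2(FPKM + 1), Benjamini-Hochberg adjusted p under 0.05 over all tested genes), where 0.267% of all tested genes did. At an unadjusted p under 0.05 there were 2 higher, Cdk6 and E2f4, and 0 lower, where 6.5% of all tested genes were higher and 9.72% lower at that threshold. In either direction that is 2 of 10, where 16.2% of all tested genes met it, a share near that background. In 2 of the 10, Cdk6 and Ccnd1, every Emp1-ko library lay above every Emp1-fl library, which held for 8.91% of tested genes, and in 0 of the 10 did the reverse hold, as in 13.2%. Together that is 2 of 10 without overlap, where 22.1% of all tested genes had none. The median log2 difference of the 10 was -0.0086, with 4 above 0 and 6 below, and that of all tested genes was -0.046, with 6773 above 0 and 8950 below.

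**Figure D1:**
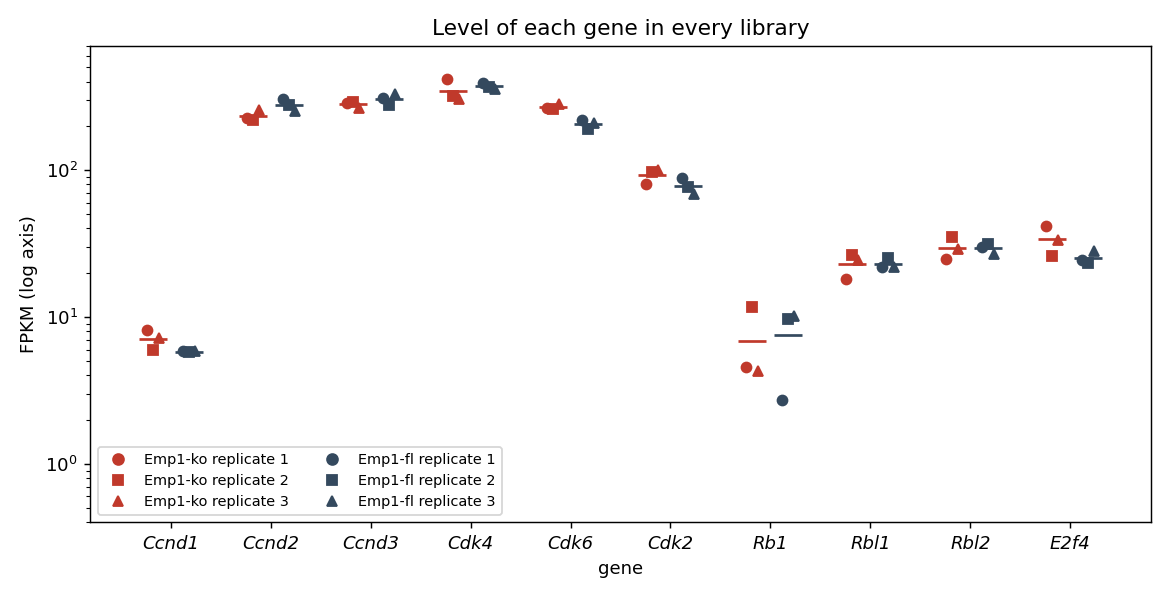
FPKM on a log axis of each of the 10 genes in every library, Emp1-ko (red) left of Emp1-fl (dark), with a symbol for each replicate and a horizontal line at the mean of each genotype. Cdk4, Ccnd3, Ccnd2 and Cdk6 lie between 190 and 418 FPKM, while Ccnd1 and Rb1 lie under 12 FPKM.

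Levels per transcript length fell into separate tiers that both genotypes shared. Cdk4, Ccnd3, Ccnd2 and Cdk6 had means above those of 97.4% to 98.4% of tested genes. Cdk2 followed, above 90.5% of them, then E2f4 and Rbl2 (each above 72.5%) and Rbl1 (67.1%), and last Rb1 (41.9%) and Ccnd1 (39.8%). In both genotypes, neighbours overlapped among E2f4, Rbl2 and Rbl1, and Ccnd1 overlapped with Rb1. In the top tier, Ccnd3 overlapped with Cdk6 in Emp1-ko and with Ccnd2 in Emp1-fl. The order of the top tier differed: in Emp1-ko it ran Cdk4, Ccnd3, Cdk6 and Ccnd2, and in Emp1-fl Cdk4, Ccnd3, Ccnd2 and Cdk6. Cdk6 exceeded Ccnd2 in each Emp1-ko library, by ratios of 1.18, 1.19 and 1.10, and lay below it in each Emp1-fl library, at ratios of 0.719, 0.683 and 0.820. This ratio was picked after the values had been seen and is given without a test.

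Cdk6 (ENSMUSG00000040274, mm10 chromosome 5, 3341485 to 3531008) showed the smallest p of the 10. It stood at 264, 262 and 284 FPKM in the Emp1-ko libraries and at 221, 190 and 208 FPKM in the Emp1-fl libraries. The genotypes did not overlap, and the 3 Emp1-ko values lay close together. The mean of 270.1 ± 11.7 FPKM in Emp1-ko was 31.0% above the 206 ± 15.5 FPKM of Emp1-fl (SD, n = 3 each). On the log2 scale the difference was 0.39 (SE 0.10, 95% interval 0.16 to 0.62), with an unadjusted limma p of 0.00364 and an adjusted p of 0.119, which missed the threshold. Over the 16 alternatives run, the difference stayed between 0.31 and 0.44 and the adjusted p between 0.0805 and 0.368. The mitochondrial share separated the same libraries, at 5.41% to 6.98% in Emp1-ko and 4.06% to 4.80% in Emp1-fl, and its part in the Cdk6 difference was not tested. An antisense gene, Gm17590, shares 368 bases of exon with Cdk6 and stood at 47.2, 28.55 and 25.5 FPKM in Emp1-ko and 27.2, 23.99 and 27.2 FPKM in Emp1-fl. The library kit is not described as stranded, so reads from shared bases cannot be assigned to either gene, and their part in the Cdk6 difference was not tested.

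Cdk4 (ENSMUSG00000006728, chromosome 10, 127063534 to 127067920) was the most abundant of the 10 and did not pass the test. It stood at 418, 318 and 307 FPKM in Emp1-ko and at 393, 366 and 355 FPKM in Emp1-fl. Emp1-ko replicate 1 was the highest of all 6 libraries, and the other two Emp1-ko libraries were the lowest. The log2 difference was -0.11 (95% interval -0.41 to 0.19, limma adjusted p = 0.759), and it depended on single libraries. It was -0.25 without Emp1-ko replicate 1, -0.025 without Emp1-ko replicate 3, -0.051 without Emp1-ko replicate 2 and -0.066 without Emp1-fl replicate 1. Cdk4 shares 641 bases of exon with Tspan31 on the opposite strand, which lay at 56.1 to 60.3 FPKM in Emp1-ko and 53.1 to 60.4 FPKM in Emp1-fl.

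The balance between the 2 kinases was examined as a share, since a share within a library does not move with its scaling. Cdk6 made up 38.8%, 45.2% and 48.0% of summed Cdk4 and Cdk6 FPKM in Emp1-ko libraries, against 36.0%, 34.2% and 36.9% in Emp1-fl libraries. Each Emp1-ko share lay above each Emp1-fl share, narrowly so for Emp1-ko replicate 1. The mean was 44.0% ± 4.74 in Emp1-ko and 35.7% ± 1.40 in Emp1-fl (SD, n = 3 each), with an exact two-sided permutation p of 0.1, the smallest that 3 against 3 allows, and an adjusted p of 0.333 over the 10 sums and shares compared. The summed level of both kinases was 618 ± 55.9 FPKM in Emp1-ko and 577 ± 31.8 FPKM in Emp1-fl, with overlapping libraries (exact permutation p = 0.4).

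Cdk2 (ENSMUSG00000025358, chromosome 10, 128697939 to 128705031), the partner of cyclins E and A, stood at 80.6, 97.3 and 99.3 FPKM in Emp1-ko and at 88.8, 77.0 and 69.2 FPKM in Emp1-fl. Emp1-ko replicate 1 lay within the range of the Emp1-fl libraries and the other two above it. The log2 difference of 0.24 (95% interval -0.046 to 0.52) did not pass (limma adjusted p = 0.398), and it was 0.15 without Emp1-fl replicate 3.

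**Figure D2:**
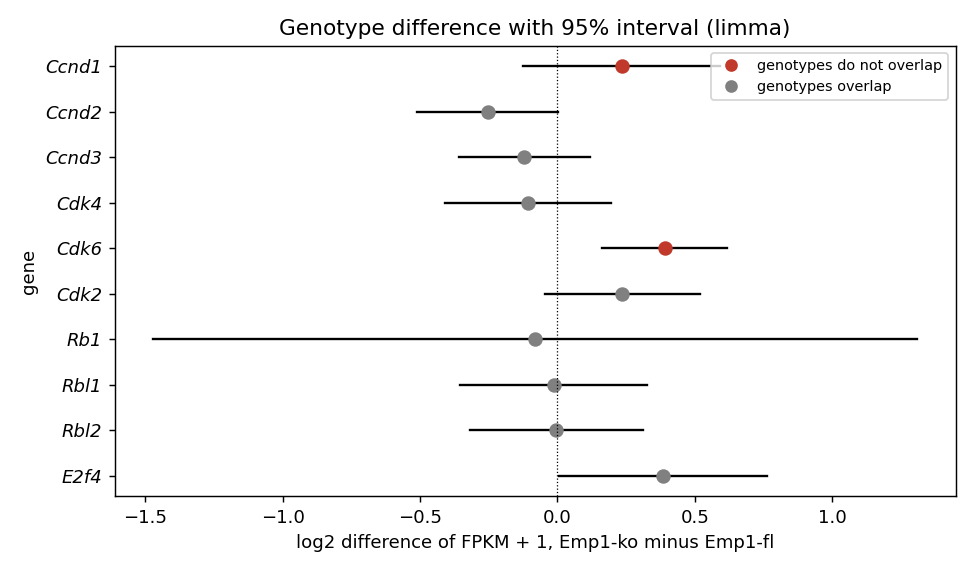
Log2 difference of FPKM + 1 (Emp1-ko minus Emp1-fl, x axis) of each of the 10 genes (y axis), with the 95% interval from limma as a line. Cdk6 at 0.39 and E2f4 at 0.38 lie farthest above 0, and the interval of Rb1 is the widest, from -1.47 to 1.31.

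The D cyclins were dominated by Ccnd2 and Ccnd3, with Ccnd1 at about a hundredth of their sum. Ccnd2 (ENSMUSG00000000184, chromosome 6, 127125162 to 127152193), a D cyclin induced by cytokines through STAT5 in blood cells, stood at 225, 220.1 and 257 FPKM in Emp1-ko and at 307, 278 and 253 FPKM in Emp1-fl. Emp1-ko replicates 1 and 2 lay below all Emp1-fl libraries, and Emp1-ko replicate 3 lay above Emp1-fl replicate 3. The mean was 234 ± 20.4 FPKM in Emp1-ko and 279 ± 26.7 FPKM in Emp1-fl (SD, n = 3 each), and the log2 difference of -0.25 (SE 0.11, 95% interval -0.51 to 0.0025) did not pass (limma adjusted p = 0.312). Ccnd2 shares 372 bases of exon with the antisense gene Gm43126, at 14.03 to 17.5 FPKM in Emp1-ko and 10.2 to 27.5 FPKM in Emp1-fl.

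Ccnd3 (ENSMUSG00000034165, chromosome 17, 47505051 to 47599691), the D cyclin on which several lymphoid and erythroid progenitors depend, stood at 287, 289 and 265 FPKM in Emp1-ko and at 310.1, 277 and 329 FPKM in Emp1-fl. Emp1-fl replicate 2 fell inside the Emp1-ko range. The log2 difference was -0.12 (95% interval -0.36 to 0.12, limma adjusted p = 0.640), and it was -0.065 without Emp1-fl replicate 3 and -0.19 without Emp1-fl replicate 2. Its processed pseudogene Ccnd3-ps was listed at no more than 1.46 FPKM in any library. Ccnd3 shares 361 bases of exon with Bysl on the opposite strand, at 14.6 to 16.7 FPKM in Emp1-ko and 13.1 to 15.9 FPKM in Emp1-fl.

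Ccnd1 (ENSMUSG00000070348, chromosome 7, 144929931 to 144939925), the D cyclin that growth factor signalling induces in many tissues, stood at 8.09, 5.93 and 7.15 FPKM in Emp1-ko and at 5.84, 5.76 and 5.82 FPKM in Emp1-fl. The genotypes did not overlap, but Emp1-ko replicate 2 lay only 0.09 FPKM above the highest Emp1-fl library. The mean was 7.06 ± 1.08 FPKM in Emp1-ko and 5.81 ± 0.0416 FPKM in Emp1-fl (SD, n = 3 each), with a log2 difference of 0.23 (95% interval -0.12 to 0.59) that did not pass (limma adjusted p = 0.526). It was 0.14 without Emp1-ko replicate 1. Ccnd1 shares 1100 bases of exon with LTO1 on the opposite strand, at 22.85, 26.0 and 24.7 FPKM in Emp1-ko and 30.6, 26.4 and 25.9 FPKM in Emp1-fl. LTO1 was thus more abundant than Ccnd1, and the sources used here do not say how reads of the shared bases were assigned.

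Summed over the 3 D cyclins, Emp1-ko libraries held 519, 515 and 529.95 FPKM and Emp1-fl libraries 623, 560.5 and 588 FPKM. Each Emp1-ko sum lay below each Emp1-fl sum, with means of 521 ± 7.80 FPKM in Emp1-ko and 590.4 ± 31.2 FPKM in Emp1-fl (SD, n = 3 each). The exact two-sided permutation p was 0.1, the smallest possible, and 0.333 after adjustment over the 10 sums and shares. The part of the mitochondrial share, 5.41% to 6.98% in Emp1-ko and 4.06% to 4.80% in Emp1-fl, in this difference was not tested. Ccnd1 made up 1.56%, 1.15% and 1.35% of the sum in Emp1-ko and 0.938%, 1.03% and 0.990% in Emp1-fl, again without overlap (exact permutation p = 0.1, adjusted 0.333). The share of Ccnd2 was 44.9% ± 3.23 in Emp1-ko and 47.3% ± 3.66 in Emp1-fl, and the libraries overlapped (exact permutation p = 0.3).

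**Figure D3:**
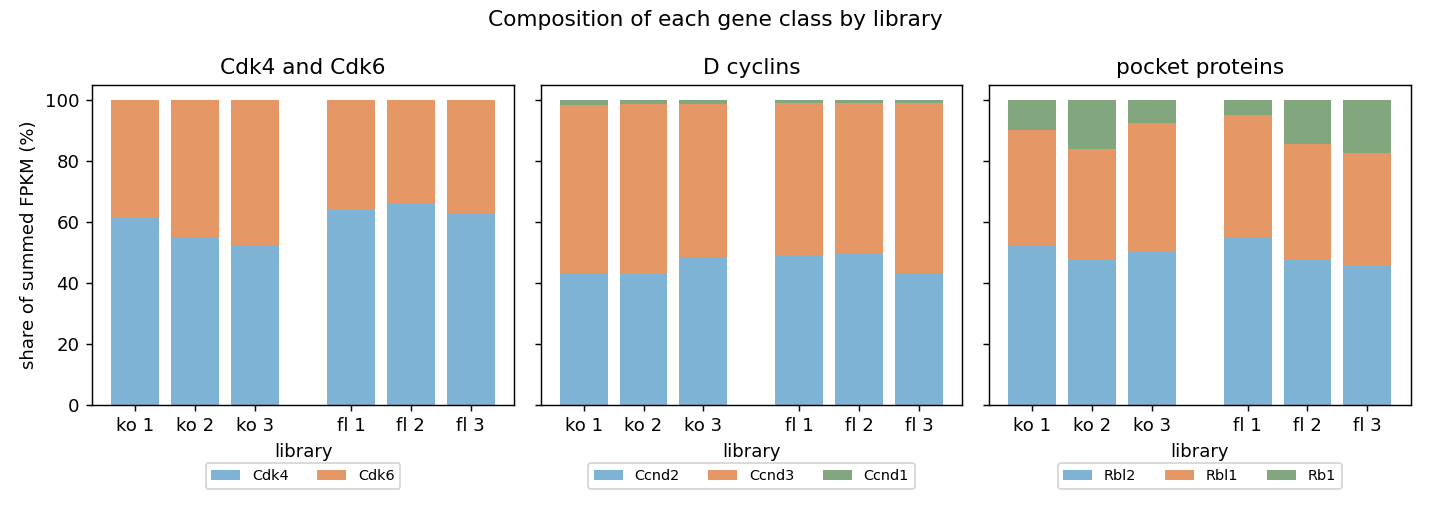
Share of summed FPKM (%) in each library for Cdk4 with Cdk6, the D cyclins and the pocket proteins, with the 3 Emp1-ko libraries left of the 3 Emp1-fl libraries. The Cdk6 share is 38.8% to 48.0% in Emp1-ko and 34.2% to 36.9% in Emp1-fl, and Ccnd1 is a sliver of 0.938% to 1.56% in all 6 libraries.

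Among the pocket proteins, Rbl2 was the most abundant, Rbl1 followed, and Rb1 was lowest. Rbl2 (ENSMUSG00000031666, chromosome 8, 91070057 to 91123844), which encodes p130, the pocket protein typical of quiescent cells, stood at 24.8, 34.95 and 28.9 FPKM in Emp1-ko and at 29.9, 31.5 and 26.8 FPKM in Emp1-fl. Rbl1 (ENSMUSG00000027641, chromosome 2, 157145893 to 157204534), which encodes p107, stood at 18.2, 26.3 and 24.6 FPKM in Emp1-ko and at 21.95, 25.2 and 21.8 FPKM in Emp1-fl. For both genes Emp1-ko replicate 1 was the lowest and Emp1-ko replicate 2 the highest of all 6 libraries. Their log2 differences were -0.0044 (95% interval -0.32 to 0.31) and -0.013 (95% interval -0.35 to 0.33), with limma adjusted p of 0.993 and 0.979. Both intervals end short of 0.39, the size fitted for Cdk6. Rbl2 shares 693 bases of exon with Aktip, at 12.5 to 16.9 FPKM in Emp1-ko and 13.3 to 20.4 FPKM in Emp1-fl. It shares 892 bases with Gm45464, at no more than 1.6 FPKM in any library. Both lie on the opposite strand.

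Rb1 (ENSMUSG00000022105, chromosome 14, 73183673 to 73325822), the founding tumour suppressor of the family, scattered most. It stood at 4.59, 11.7 and 4.26 FPKM in Emp1-ko and at 2.73, 9.66 and 10.2 FPKM in Emp1-fl, so that 2 Emp1-ko libraries and 1 Emp1-fl library were low and the rest high. The log2 difference was -0.081 with a 95% interval of -1.47 to 1.31 (limma adjusted p = 0.965), too wide to show a difference of the size seen for Cdk6. Rb1 shares 488 bases of exon with Rcbtb2, at 43.4 to 49.7 FPKM in Emp1-ko and 50.2 to 55.9 FPKM in Emp1-fl, and 408 bases with Lpar6, at 2.66 to 6.46 FPKM in Emp1-ko and 4.48 to 7.43 FPKM in Emp1-fl, both on the opposite strand.

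The 3 pocket proteins together reached 59.4 ± 12.8 FPKM in Emp1-ko and 59.9 ± 5.98 FPKM in Emp1-fl (exact permutation p = 0.9). Rbl2 made up 50.01% ± 2.11 of that sum in Emp1-ko and 49.3% ± 4.85 in Emp1-fl. Rbl1 made up 38.9% ± 3.37 in Emp1-ko and 38.4% ± 1.602 in Emp1-fl, and Rb1 11.04% ± 4.52 in Emp1-ko and 12.3% ± 6.45 in Emp1-fl. All these differences were smaller than the spread between replicates.

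E2f4 (ENSMUSG00000014859, chromosome 8, 105297663 to 105305370), the repressor E2F that works with p130 and p107, stood at 41.8, 25.9 and 33.6 FPKM in Emp1-ko and at 24.3, 23.45 and 27.9 FPKM in Emp1-fl. Emp1-ko replicates 1 and 3 lay above all Emp1-fl libraries, and Emp1-ko replicate 2 lay among them. The mean was 33.8 ± 7.98 FPKM in Emp1-ko and 25.2 ± 2.37 FPKM in Emp1-fl (SD, n = 3 each). The log2 difference of 0.38 (SE 0.17, 95% interval 0.0061 to 0.76) had an unadjusted limma p of 0.0471 and an adjusted p of 0.301, and it was 0.22 without Emp1-ko replicate 1 and 0.56 without Emp1-ko replicate 2.

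Across the 6 libraries, which share the sort and the protocol, Ccnd1 and E2f4 had the most similar profiles of the 45 pairs of these genes (Pearson r of log2(FPKM + 1) of 0.97, n = 6), with Emp1-ko replicate 1 the highest for both. Rbl1 and Rbl2 followed at r = 0.89, and Cdk4 and Rbl1 were the most opposed at r = -0.80. Among 9251 other protein-coding genes with a mean of at least 5 FPKM, the profile of Cdk6 was most like those of Bcl6, a transcriptional repressor (r = 0.996), and Nmnat1, an enzyme of NAD synthesis (r = 0.994). Bcl6 stood at 9.51, 8.42 and 11.9 FPKM in Emp1-ko and at 5.44, 3.15 and 4.23 FPKM in Emp1-fl. Ccnd1 was most like Eif4ebp1 and Wdr74 (both r = 0.992), Ccnd2 most like Brat1 and Ripk3 (r = 0.990 and 0.989), Ccnd3 most like Prrc2b and Ggh (r = 0.983 and 0.977), and Cdk4 most like Smarca4 and Prdx3 (both r = 0.981). These genes were selected from 9251 for their likeness over 6 libraries, and the values are descriptions.

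Around these 10 genes, 8 lists of other cell cycle genes were described from the same fit. Over all of them 1 gene passed, the inhibitor Cdkn1a (p21), which rose to 1305, 1111 and 1293 FPKM in Emp1-ko, against 658, 714 and 789 FPKM in Emp1-fl (log2 difference 0.78, limma adjusted p = 0.0488). That call was kept in 3 of 16 alternatives, was lost when any 1 of the 6 libraries was left out, and had an adjusted p from 0.0215 to 0.197 over them, with a difference of 0.72 to 0.85. The mitochondrial share was likewise higher in each Emp1-ko library (5.41% to 6.98%) than in any Emp1-fl library (4.06% to 4.80%), and its part in the Cdkn1a difference was not tested. Of the 7 listed Cdk inhibitors 5 were tested, 4 with a positive difference, and the median was 0.29. Cdkn2c (p18), an INK4 inhibitor that binds CDK4 and CDK6 and limits stem cell division in mice, stood at 10.3, 10.2 and 6.43 FPKM in Emp1-ko and at 6.11, 4.15 and 5.07 FPKM in Emp1-fl (log2 difference 0.69, adjusted p = 0.167). The INK4 inhibitor Cdkn2d (p19) stood at 138, 128 and 156 FPKM in Emp1-ko and at 117, 103 and 124 FPKM in Emp1-fl (0.29, adjusted p = 0.255). Neither overlapped between genotypes and neither passed. Cdkn1b (p27) differed by 0.18 (adjusted p = 0.607). Cdkn1c (p57) stood at 1.17, 2.75 and 5.61 FPKM in Emp1-ko and at 3.22, 3.59 and 1.78 FPKM in Emp1-fl, with overlap (log2 difference -0.00053). Cdkn2b was at or below 0.36 FPKM, and Cdkn2a was listed at 0 in all 6 libraries.

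Among the other E2F genes and their partners, 0 of 9 passed, 4 were higher and 5 lower, and the median was -0.012. The activator E2f3 stood at 4.23, 5.61 and 5.48 FPKM in Emp1-ko and at 7.24, 7.19 and 6.90 FPKM in Emp1-fl, without overlap (log2 difference -0.42, limma adjusted p = 0.243). Tfdp1, the E2F dimer partner and highest of the list, averaged 50.5 FPKM in Emp1-ko and 51.1 FPKM in Emp1-fl, and its relative Tfdp2 36.7 FPKM in Emp1-ko and 32.6 FPKM in Emp1-fl. The repressor E2f8 averaged 7.69 FPKM in Emp1-ko and 9.66 FPKM in Emp1-fl, and the repressor E2f6 5.38 FPKM in Emp1-ko and 6.32 FPKM in Emp1-fl. Of the Cdk activators 0 of 6 passed (5 higher, 1 lower, median 0.0998). Ccnh, the cyclin of the Cdk-activating kinase, averaged 69.1 FPKM in Emp1-ko and 55.6 FPKM in Emp1-fl without overlap (0.31, adjusted p = 0.171). Its assembly factor Mnat1 averaged 23.2 FPKM in Emp1-ko and 19.8 FPKM in Emp1-fl. The phosphatase Cdc25b averaged 8.87 FPKM in Emp1-ko and 11.3 FPKM in Emp1-fl, and Cdc25c, which acts at mitosis, 10.1 FPKM in Emp1-ko and 9.30 FPKM in Emp1-fl.

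The other cyclins and kinases of G1 and S did not pass either (0 of 6 tested, 4 higher, 2 lower, median 0.22). Cdk1, the highest, averaged 59.4 FPKM in Emp1-ko and 53.4 FPKM in Emp1-fl. Ccne2, a cyclin E, averaged 7.40 FPKM in Emp1-ko and 6.16 FPKM in Emp1-fl. Cdk8 of the Mediator complex averaged 11.01 FPKM in Emp1-ko and 9.07 FPKM in Emp1-fl, and its cyclin Ccnc 19.1 FPKM in Emp1-ko and 22.3 FPKM in Emp1-fl. In the list of Myb genes and the MuvB core, which works with p130 and p107, 0 of 6 tested passed (4 higher, 2 lower, median 0.019). The core's histone-binding subunit Rbbp4 averaged 80.8 FPKM in Emp1-ko and 80.9 FPKM in Emp1-fl. Its DNA-binding subunit Lin54 averaged 6.11 FPKM in Emp1-ko and 4.70 FPKM in Emp1-fl. Among genes that control cyclin turnover 0 of 8 passed (5 higher, 3 lower, median 0.15). Usp2, a deubiquitinase that stabilises cyclin D1, stood at 29.6, 19.0 and 23.6 FPKM in Emp1-ko and at 13.7, 14.2 and 17.4 FPKM in Emp1-fl (0.63, adjusted p = 0.138). Ambra1, the substrate receptor of the ligase that degrades D cyclins, stood at 7.04, 9.34 and 7.43 FPKM in Emp1-ko and at 10.5, 9.5 and 11.4 FPKM in Emp1-fl (log2 difference -0.37, adjusted p = 0.284). Fbxo4, an F-box protein of a cyclin D1 ligase, stood at 5.05, 7.85 and 5.89 FPKM in Emp1-ko and at 2.69, 2.51 and 6.61 FPKM in Emp1-fl, with overlap (0.63, adjusted p = 0.355). Gsk3b, a kinase that marks cyclin D1 for degradation, averaged 34.0 FPKM in Emp1-ko and 28.4 FPKM in Emp1-fl (0.26, adjusted p = 0.272). Cks1b, a cofactor in the degradation of p27 and the highest of that list, averaged 151 FPKM in Emp1-ko and 132 FPKM in Emp1-fl.

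Of 20 E2F targets of DNA replication 0 passed (11 higher, 9 lower, median 0.0197, and 0 at an unadjusted limma p under 0.05). Mcm6, a subunit of the replicative helicase, averaged 238 FPKM in Emp1-ko and 269 FPKM in Emp1-fl, and Mcm2 of the same complex 113 FPKM in Emp1-ko and 132 FPKM in Emp1-fl. The ribonucleotide reductase subunit Rrm2 averaged 30.3 FPKM in Emp1-ko and 24.4 FPKM in Emp1-fl, and the histone mRNA binding protein Slbp 149 FPKM in Emp1-ko and 126 FPKM in Emp1-fl. Of 16 mitotic genes 0 passed as well (15 higher, 1 lower, median 0.23, and 0 at an unadjusted limma p under 0.05). Ccnb1, a mitotic cyclin, averaged 49.6 FPKM in Emp1-ko and 38.2 FPKM in Emp1-fl, and Tacc3, a spindle gene, 47.6 FPKM in Emp1-ko and 39.3 FPKM in Emp1-fl. The mitotic list's mean level relative to the 6-library mean, in log2 units, was 0.0090, 0.22 and 0.068 in the Emp1-ko libraries and 0.27, -0.30 and -0.27 in the Emp1-fl libraries. Emp1-fl replicate 1 had the highest mitotic level of all 6 libraries, so the genotypes overlapped. Emp1-fl replicates 2 and 3 had lower mitotic levels than each Emp1-ko library. The part of the mitotic level in the Cdk6 difference was not tested.

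**Figure D4:**
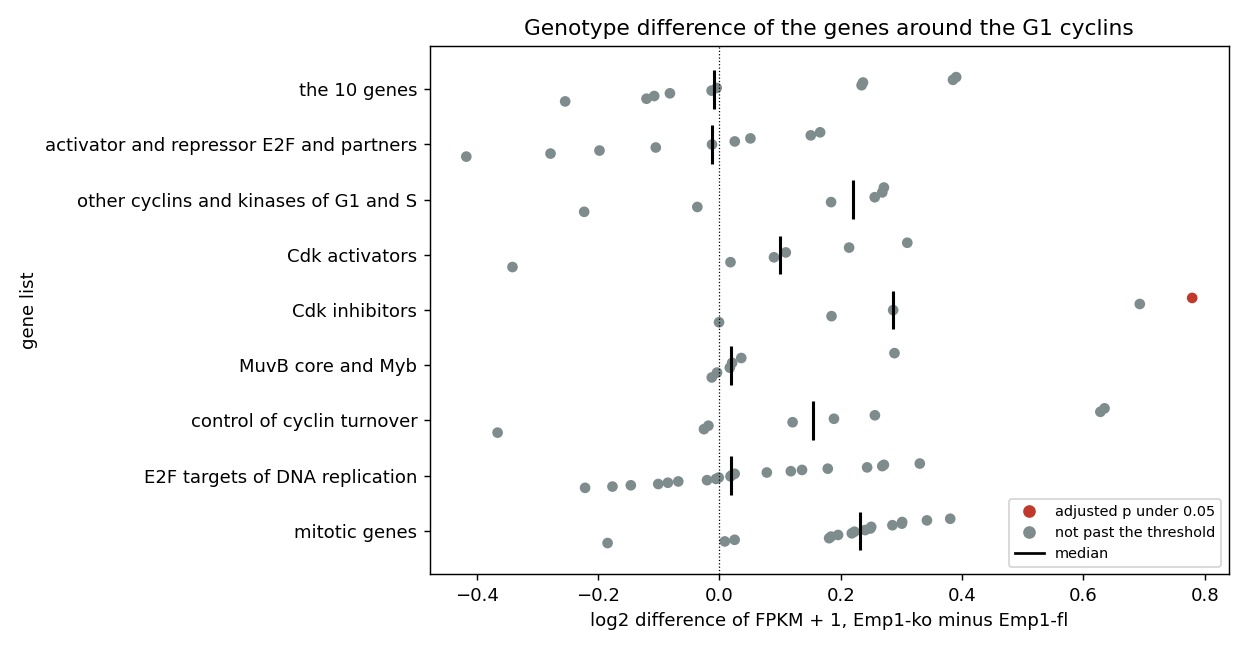
Log2 difference of FPKM + 1 (Emp1-ko minus Emp1-fl, x axis) of each tested gene, a dot per gene, for the 10 genes and the 8 lists around them (y axis), with the median as a bar. Cdkn1a at 0.78 is the 1 gene past the threshold, and the 15 mitotic genes above 0 do not reach it.

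Markers of the stem cell state and of other cell types were set beside these values, and 0 of the 45 tested passed in either direction (limma). Before adjustment, 3 of the 45 with a positive and 7 with a negative difference had a limma p under 0.05. Of all tested genes, 6.5% were higher and 9.72% lower at that threshold. No overlap between genotypes, given below for single markers, held for 22.1% of all tested genes. Those named were picked after their values had been seen. Hlf, a stem cell transcription factor, stood at 32.9, 43.2 and 43.3 FPKM in Emp1-ko and at 64.6, 62.2 and 47.1 FPKM in Emp1-fl, without overlap (log2 difference -0.53, limma adjusted p = 0.153). Ly6a, which encodes Sca-1, averaged 73.6 FPKM in Emp1-ko and 93.1 FPKM in Emp1-fl, also without overlap (-0.34, adjusted p = 0.199). Slamf1 averaged 23.7 FPKM in Emp1-ko and 17.4 FPKM in Emp1-fl (0.42, adjusted p = 0.241). Of the 9 stem cell and gate genes 2 had a positive and 7 a negative difference, several of them near 0. Kit, Procr, Mecom and Cd48 had log2 differences of only -0.046, -0.035, -0.053 and -0.055, Cd34 of 0.083 and Flt3 of -0.41. The summed level of the 9 genes was 769 to 951 FPKM in Emp1-ko and 775 to 969 FPKM in Emp1-fl.

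Of the 8 markers of monocytes, macrophages and dendritic cells 7 were tested, 1 with a positive and 6 with a negative difference. Their sum was 346 to 417 FPKM in Emp1-ko and 392.4 to 411 FPKM in Emp1-fl, but most of it was Lyz2, which encodes lysozyme, at 249.9 to 279 FPKM in Emp1-ko and 267 to 299 FPKM in Emp1-fl. Of the tested members, the less abundant Irf8, Csf1r and Adgre1 differed most. The less abundant Cd74, Ccr2 and Cd68 had log2 differences of only -0.066, -0.075 and 0.080. Irf8, a transcription factor of monocytes and dendritic cells, stood at 7.15, 5.94 and 5.66 FPKM in Emp1-ko and at 13.9, 18.2 and 11.1 FPKM in Emp1-fl, without overlap (log2 difference -1.07, limma adjusted p = 0.0661). Csf1r, the M-CSF receptor, stood at 5.15, 4.03 and 2.24 FPKM in Emp1-ko and at 7.72, 6.92 and 11.7 FPKM in Emp1-fl, without overlap (-1.04, adjusted p = 0.124). Adgre1, which encodes the macrophage antigen F4/80, averaged 2.92 FPKM in Emp1-ko and 5.96 FPKM in Emp1-fl, with overlap (-0.88, adjusted p = 0.222).

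T and NK cell genes held differences in both directions. Their sum was 269 to 383 FPKM in Emp1-ko and 196 to 265 FPKM in Emp1-fl, nearly all from Nkg7, a gene of cytotoxic granules, which averaged 313 FPKM in Emp1-ko and 217 FPKM in Emp1-fl without overlap (log2 difference 0.52, limma adjusted p = 0.168). Gzmb, which encodes granzyme B, stood at 7.28, 3.80 and 7.60 FPKM in Emp1-ko and at 3.07, 0.68 and 2.63 FPKM in Emp1-fl, without overlap (1.26, adjusted p = 0.165). Cd4, the T helper cell coreceptor, lay the other way, at 1.16, 1.06 and 0.57 FPKM in Emp1-ko and 3.36, 6.47 and 4.51 FPKM in Emp1-fl, without overlap (-1.56, adjusted p = 0.0577). The T cell receptor component Cd3d was at most 0.19 FPKM and Cd8a at most 0.23 FPKM in any library. Cd3e, of the same receptor, lay at 0.26 to 1.42 FPKM in Emp1-ko and 0.38 to 1.32 FPKM in Emp1-fl.

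The other marker lists had overlapping sums, and many of their genes were plainly listed in these libraries. Neutrophil genes summed to 152 to 453 FPKM in Emp1-ko and 164 to 392.5 FPKM in Emp1-fl, led by S100a8, a granulocyte calcium-binding protein, at 33.1 to 212 FPKM in Emp1-ko and 32.4 to 189 FPKM in Emp1-fl. The granule genes Ngp and Camp reached 43.5 and 42.9 FPKM in Emp1-ko replicate 3, and neither exceeded 9.26 FPKM in any other library. Megakaryocyte genes summed to 548 to 919 FPKM in Emp1-ko and 657 to 859.6 FPKM in Emp1-fl, led by Pf4, which encodes platelet factor 4, at 224 to 515 FPKM in Emp1-ko and 313 to 428 FPKM in Emp1-fl. Erythroid genes summed to 75.3 to 187 FPKM in Emp1-ko and 98.7 to 163 FPKM in Emp1-fl. B and plasma cell genes summed to 45.2 to 58.3 FPKM in Emp1-ko and 40.7 to 74.3 FPKM in Emp1-fl. That sum was mostly Cd79b, of the B cell receptor, at 31.2 to 36.5 FPKM in Emp1-ko and 28.5 to 40.04 FPKM in Emp1-fl. The plasma cell gene Sdc1 stood at 2.07, 2.59 and 2.61 FPKM in Emp1-ko and at 5.03, 11.58 and 3.85 FPKM in Emp1-fl, without overlap (log2 difference -1.07, limma adjusted p = 0.172). Jchain of the same list lay the other way, at 21.55, 9.22 and 14.66 FPKM in Emp1-ko and 2.72, 25.75 and 6.61 FPKM in Emp1-fl, with overlap (0.75, adjusted p = 0.742). Endothelial genes summed to 70.5 to 92.7 FPKM in Emp1-ko and 73.8 to 82.3 FPKM in Emp1-fl, with Pecam1, an adhesion molecule, at 40.9 to 53.4 FPKM in Emp1-ko and 39.8 to 47.8 FPKM in Emp1-fl, and Cdh5, the endothelial cadherin, at most 0.64 FPKM. The part of these markers in the values of the 10 genes was not tested, and in bulk samples fewer cells of a type and less RNA per cell cannot be told apart.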

How the data were processed

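The authors deposited 1 table of FPKM values with 2 decimals for 55401 genes in 6 libraries. Per the labels' protocols, the low-input method Geo-seq was used for amplification and the TruePrep kit for libraries. The submitters' processing notes list the build mm10 with Cufflinks 2.1.1, Bowtie 0.12.9, HTSeq and DESeq2, but not which of them made the FPKM values. FPKM is relative to each library's total, so a transcript that takes more lowers the others, and amplification adds scatter.

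Symbols and positions came from GENCODE M21 on GRCm38, the assembly mm10 denotes (55141 identifiers matched, 260 did not). Promoter sequences came from RefSeq (GRCm38.p6), with windows for 6 of the 10 genes. Differences on log2(FPKM + 1) were fitted over all 15723 tested genes with limma 3.58.1 in R 4.3.3 (eBayes with robust and trend, two-sided) by genotype alone. On this scale differences of low genes are understated. Sums and shares were compared by exact permutation. The limma steps were tested in 10 simulations with 200 genes changed by a log2 of 1, drawn from genes above a minimum level. Of the changed genes 68.95% were recovered, and 4.40% of the calls were false. Smaller changes, such as the 0.39 fitted for Cdk6, were not simulated. The rule for named genes took all 10 genes, of each list the highest member, up to 4 with the smallest p and any that passed, and, for 5 of the 10, the 2 genes with the most similar profile, of which most are printed. The 10 genes and the lists were chosen with earlier results of these data known. Alternatives varied the pseudocount, filter, scaling, weights, moderation, gene set, replicate block and libraries. No 2 libraries held identical values. Of the listed cell type markers, 2 are not reported here and were left out of the sums.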

Additional observations from a re-analysis of the deposited data

How the results depend on the processing

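The count of the 10 genes that passed was 0 higher and 0 lower in each of the 16 alternatives, although the number of all genes called ranged from 1 to 70 higher and from 0 to 142 lower, against 25 and 17. With the replicate number as a block, which the labels do not define as a pairing, 6 genes were higher and 2 lower and the Cdk6 difference had an adjusted limma p of 0.158. Deviations of same-numbered libraries correlated at r = -0.11, 0.086 and -0.052 across genes, which does not pair them. Changes of filter, gene set and moderation and the replicate block leave the fitted differences as they were, so they could not reverse a direction. For Cdk6 and Ccnd1, without overlap between genotypes, leaving out a library could not reverse it either. Ccnd1, Ccnd2, Ccnd3, Cdk2, Cdk4, Cdk6 and E2f4 kept their direction in all 16 alternatives. The pocket proteins, near 0, did not: with quantile normalization Rbl1 was at 0.037 and Rbl2 at 0.026, and with array weights at 0.026 and 0.021. With each library left out in turn, Rb1 ran from -0.60 to 0.19, Rbl1 from -0.11 to 0.14 and Rbl2 from -0.13 to 0.11. The summed pocket protein difference ran from -7.29 to 5.42 FPKM, and the share differences from -4.87 to 1.27 percentage points for Rb1, -1.34 to 1.97 for Rbl1 and -1.10 to 3.48 for Rbl2. The cause was not tested. In all 8 alternatives run for them the D cyclin sum stayed lower in Emp1-ko and the Cdk6 share stayed higher there. The Cdk6 share difference was 6.29 to 10.9 percentage points. Neither value overlapped between genotypes, so leaving out a library could not reverse it. The replicate block left both differences unchanged, and rescaling cannot move a share. With 3 libraries per genotype an exact test cannot reach 0.05, and unknown depth limits the precision of low genes such as Ccnd1 and Rb1.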
